A study of Mus musculus with 2 samples.

Results

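The cells described here are the Pi16 and Col14a1 adventitial fibroblasts of the mouse colon, a group of 67 cells among 1026 cells of a single-cell RNA series. They were chosen by measured values, in steps. A barcode needed at least 1000 UMIs (unique molecular identifiers, each of which counts 1 captured RNA molecule), at least 200 genes and under 10% mitochondrial UMIs. It counted as a fibroblast with at least 10 UMIs of Col1a1, Col1a2, Col3a1 and Dcn together, at most 1 UMI of Epcam, Ptprc and Pecam1 and under 5 of Actg2, Des and Myh11, which left 244 barcodes. A fibroblast was a member when Pi16, Col14a1, Pcolce2 and Scara5 summed to at least 2 UMIs and to more than Adamdec1, Sfrp1, Wnt4 and Tcf21. The opposite outcome gave 171 Adamdec1-side fibroblasts, and 6 barcodes had neither sum ahead by enough.

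The series compared colon cells of wild-type C57BL/6 mice given Δ9-tetrahydrocannabinol (THC, the main psychoactive compound of cannabis) at 10 mg/kg with colon cells of wild-type C57BL/6 mice given the Vehicle Control. EDTA was used to strip the epithelium, an enzyme mix of collagenase D, DNAse and Dispase to free the layer beneath, and a Percoll step to enrich lamina propria cells, whose RNA was captured with the 10x Genomics 5' kit. Each group had 1 library. How many mice a library came from, of which sex and dosed how often is not stated in the labels. Every comparison is therefore between 2 libraries, and no test between treatments was possible.

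Adventitial fibroblasts lie in the loose connective tissue around vessels and between the layers of the gut wall. Pi16, a secreted peptidase inhibitor, and Col14a1, a collagen that binds to the surface of fibrils, mark them in many organs, and they are known as a fibroblast state shared across tissues that is rich in matrix genes and in signals to immune cells. Adamdec1-bearing fibroblasts sit instead in the lamina propria under the epithelium. Hyaluronan, the matrix sugar that adventitial fibroblasts are known to make, is built at the cell membrane by hyaluronan synthases such as Has1 from sugar nucleotides.

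The THC library held 24 members and the vehicle library 43. They made up 27.0% of 89 THC fibroblast barcodes (exact binomial 95% interval 18.1 to 37.4%) and 27.7% of 155 vehicle ones (20.9 to 35.5%), and the intervals overlapped. Of all cells past the limits they were 6.06% of 396 (3.92 to 8.88%) and 6.83% of 630 (4.98 to 9.08%). THC members had a median of 6372.5 UMIs and 1933.5 genes and vehicle members 7806 UMIs and 2529 genes, with mitochondrial medians of 2.70% and 2.61%. Summed over the cells this gave 150619 and 336815 UMIs. No barcode past the limits occurred in both libraries. The THC matrix was deposited with all possible barcodes and the vehicle matrix with called cells only, the lowest at 502 UMIs, which is under the limit of 1000 used for both.

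The label was set against its markers. Col14a1 was found in 24 of 24 THC and 42 of 43 vehicle members, Pi16 in 16 and 35, Pcolce2 in 17 and 39, and Scara5 in 18 and 34, values that the choice itself produced. Has1 is a marker the choice did not read: 19 THC members (79.2%) and 31 vehicle members (72.1%) held it, against 6 of 63 and 5 of 108 Adamdec1-side fibroblasts. Among epithelial barcodes it was seen in 0 of 118 THC and 0 of 175 vehicle cells, at medians of 18062.5 and 13862 UMIs. That allows shares of up to about 2.54% and 1.71%. Few cells lay at the edge of the rule. Within 3 UMIs of it there were 2 THC and 1 vehicle members inside (marker sums against Adamdec1-side sums of 3 against 2, 6 against 3 and 8 against 7) and 4 THC and 6 vehicle barcodes outside, whose marker sums were 0 to 8 against 0 to 8.

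Among other cell types' markers, glial and adipocyte lists stood at 0 UMIs in both libraries, pericyte markers at 0 and 4 UMIs, and endothelial markers at 2 and 3. Immune markers came to 1 and 111 UMIs, epithelial markers to 94 and 20, mesothelial markers to 128 and 4, and smooth muscle markers to 36 and 200. Most of the larger sums lay in 3 cells. A THC member with 13900 UMIs, the most of any, held 122 UMIs of the mesothelial list (Upk3b 40, Msln 24, Krt19 33), the keratins Krt8 (40) and Krt18 (51) of the epithelial list, and an adventitial marker sum of only 4. A vehicle member, the one at 8 against 7 UMIs, held 152 smooth muscle UMIs (Acta2 69, Tagln 61), and another held 105 immune UMIs (Lyz2 39, Cd74 38, C1qa 16). All 3 met the rule and stay among the members, and values without them are given beside the results they moved most.

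**Figure D1:**
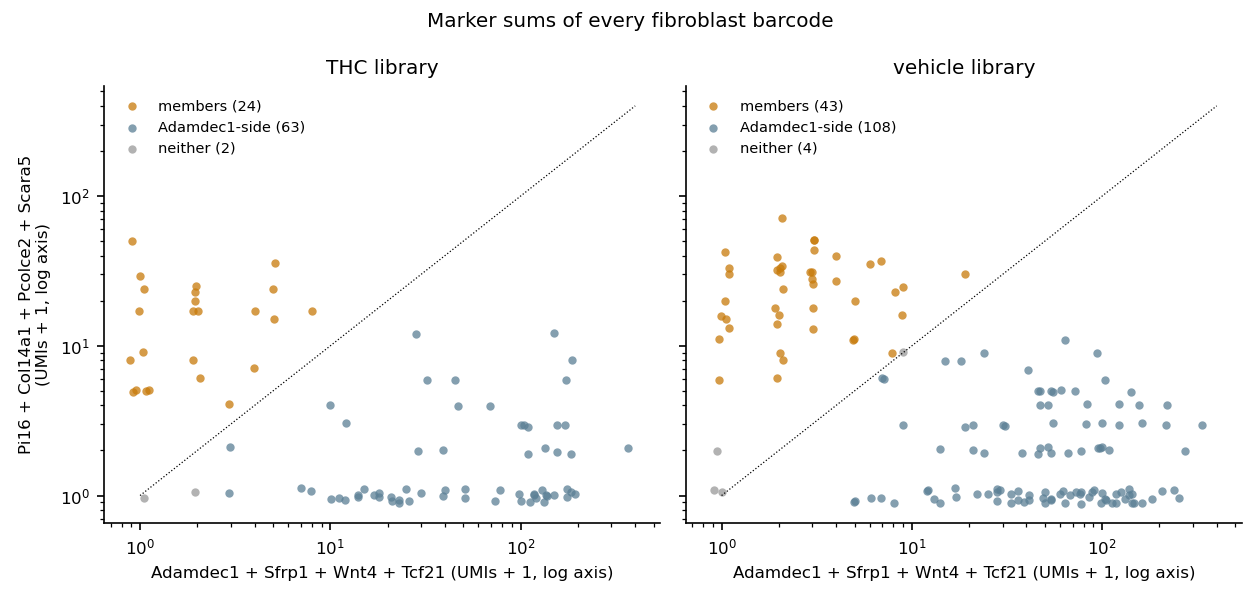
Each point is a fibroblast barcode of the THC library (left) or the vehicle library (right), with the summed UMIs of the lamina propria markers on the x axis and of the adventitial markers on the y axis, both plus 1 on log axes; points are moved slightly so that they do not hide each other. The 24 and 43 members lie above the dotted line of equal sums, mostly at low x, and few barcodes lie near the line.

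Set beside Adamdec1-side fibroblasts of the same library, members had higher levels of several genes of hyaluronan production, of the monocyte chemokines Ccl2 and Ccl7 and of a set of adventitial surface and matrix genes. The rule split these cells by expression, so the ratios below describe the split and carry no test. A level is a gene's UMIs summed over the cells and scaled to an equal total (CPM), a ratio is the log2 of 2 such levels, and the 95% interval beside it is an exact Poisson interval that covers counting error alone. Of 3060 genes with at least 30 UMIs over both kinds of cell in each library, 115 (3.76%) were at least 2-fold higher in members in both libraries and 286 (9.35%) at least 2-fold lower. Without the 3 cells the counts were 134 and 318.

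Has1 itself had 340 UMIs in 24 THC members and 992 UMIs in 43 vehicle members, at 2257 and 2945 CPM, against 110 and 48.3 CPM in Adamdec1-side fibroblasts. Its ratio was 4.36 (95% interval 3.95 to 4.80) in the THC library and 5.93 (5.47 to 6.43) in the vehicle library. RNA of several enzymes that make its precursor sugars was higher alongside it, while the sugars themselves were not measured. Gfpt2, which commits fructose 6-phosphate to amino sugars, had ratios of 3.86 and 4.65. Ugdh, which makes the UDP-glucuronic acid that the synthase joins in, had 2.76 and 3.51, Uap1, which makes UDP-N-acetylglucosamine, 1.78 and 2.82, and Ugp2, which makes UDP-glucose, 1.04 and 2.12. The precursor genes Gfpt1 (0.41 and -0.20), Pgm3 (0.15 and 0.52) and Gnpnat1 (0.65 and 2.61) had too few UMIs to count as measured here.

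Proteins that bind or crosslink hyaluronan were higher as well. Tnfaip6, the TSG-6 protein that moves heavy chains onto the polymer, stood at 1.95 and 3.10. Ptx3, a pentraxin that crosslinks the loaded polymer, had 35 THC and 130 vehicle UMIs in members and 0 in Adamdec1-side cells. With that 0 set to a floor of 3 UMIs its ratios were 5.28 and 6.70, with lower interval bounds of 4.91 and 6.38. A list of 18 genes of hyaluronan precursors, synthesis, binding and breakdown was written after these values had been seen. Its counts are therefore a description only. Of 10 measured genes, 7 were at least 2-fold higher in members in both libraries and 0 lower, beside 3.76% and 9.35% of all genes. The proteoglycan Vcan (-0.55 and -0.85), the heavy chain gene Itih5 (-0.62 and -0.39) and the receptor Cd44 (-0.18 and 0.99) were not.

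The promoter of Has1, a marker that the choice did not read, is shown from RefSeq (GRCm38.p6) at chr17:17855189-17855438 on the minus strand, the 250 bases before the annotated start of the gene, written 5′ to 3′. Capitals mark the cyclic AMP response element, TGACGTCA. Searched on both strands, its 8 letters are found in 1.55% of the 32851 promoter windows of this length. The element holds the shorter TGACG on both strands, which is in 17.8% of windows.
Has1: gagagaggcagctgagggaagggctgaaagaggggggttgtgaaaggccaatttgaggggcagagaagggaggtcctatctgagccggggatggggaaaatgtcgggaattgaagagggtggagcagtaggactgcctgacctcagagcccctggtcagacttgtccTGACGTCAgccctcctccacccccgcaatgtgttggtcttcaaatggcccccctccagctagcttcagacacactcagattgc
The match is a description of these letters, and no binding was measured.

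Of 9 measured chemokines, 2 (Ccl2 and Ccl7) were at least 2-fold higher in members in both libraries and 4 (Cxcl10, Cxcl12, Cxcl14 and Cxcl16) at least 2-fold lower, where all genes gave 3.76% and 9.35%. The monocyte chemokine Ccl7 was among the genes furthest apart: 147 THC and 830 vehicle UMIs in members, against 11 and 65 in the more numerous Adamdec1-side cells, with ratios of 5.48 (4.59 to 6.51) and 4.94 (4.57 to 5.32). Ccl2, which draws the same monocytes through Ccr2, had ratios of 2.73 and 3.19. The alarmin Il33 stood at 4.11 and 2.83 from 26 and 95 UMIs, and Il6 at 2.46 and 2.03 from 38 and 70. The complement component C3 stood at 4.15 and 2.23, and in Adamdec1-side cells it was itself unequal between the libraries, at 65 THC and 402 vehicle UMIs. Cxcl12 went the other way, at -3.34 and -2.71, as did Cxcl14, with 1 and 5 UMIs in members against 259 and 490.

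Among secreted regulators, the Wnt antagonist Sfrp4 had 34 and 210 UMIs in members against 1 and 1, a ratio of 6.82 (4.25 to 12.2) and 8.98 (6.48 to 14.3). The transcription factor Ebf1, found in 20 and 39 members, had ratios of 4.99 and 4.44, and the guidance ligand Slit3 had 53 and 138 UMIs against 22 and 30. Ifi205 stood at 4.62 and 4.34, the serine protease Prss23 at 3.69 and 3.62, the secreted factor Metrnl at 3.57 and 4.83, the annexin Anxa3 at 3.77 and 2.87, and Adamts5, a protease that cuts aggrecan and versican, at 3.52 and 4.75. Igfbp6, which holds insulin-like growth factor 2, stood at 2.68 and 2.46. In the THC library 128 of its 351 UMIs lay in the cell with mesothelial markers, and without the 3 cells its ratios were 2.16 and 2.49.

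Of 19 measured genes of the universal fibroblast list, 11 were at least 2-fold higher in both libraries and 1 lower, beside 3.76% and 9.35% of all genes. Cd34 (1.43 and 1.27), Cd248 (2.08 and 2.37), the complement shield Cd55 (2.34 and 2.35), Mfap5 (2.31 and 2.84) and tenascin Tnxb (1.71 and 1.74) were among the higher, while Ly6a (0.02 and 0.58) and Efemp1 (-0.31 and 0.31) were close to level. Dpp4, often used with Pi16 to find these cells, had only 4 and 14 UMIs. Of 13 elastic fibre genes, 3 were higher (Fbn1, Mfap5 and Fbln2) and 3 lower. Of 8 fibrillar and associated collagen genes 0 were higher and 1 lower, counts too small to set apart from the 3.76% and 9.35% of all genes.

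The genes at the lower end were those higher in the Adamdec1-side cells that the rule split off, and no position in the tissue was measured. Tmem176a had 4 and 6 UMIs in members against 757 and 1172 in Adamdec1-side cells, and Tmem176b 17 and 14 against 1192 and 2055. Without the 3 cells Tmem176b had 5 and 6 UMIs in members, and its ratios went from -4.40 and -5.94 to -6.02 and -7.08. Igfbp3 had 2 and 21 against 1042 and 1647. Bmp5, a BMP ligand of the stroma under the epithelium, Agt, the precursor of angiotensin, and Emid1 had 0 UMIs in members of either library. With that 0 set to the floor of 3 UMIs the ratios of Bmp5 were -3.60 and -4.44, with upper interval bounds of -3.28 and -4.12. Of 9 measured genes of the subepithelial list, 0 were higher and 6 lower in both libraries, beside 3.76% and 9.35% of all genes.

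**Figure D2:**
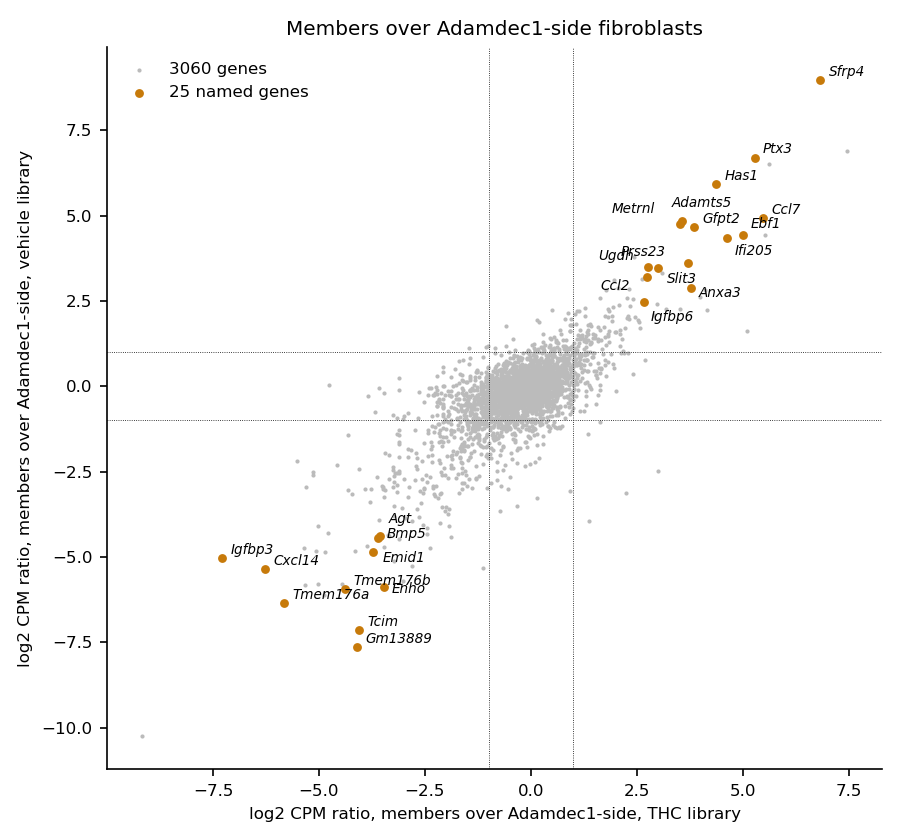
Each grey point is 1 of 3060 genes, with its log2 CPM ratio of members over Adamdec1-side fibroblasts in the THC library on the x axis and in the vehicle library on the y axis; the 25 orange points are the named genes and dotted lines mark 2-fold. Named genes lie in the upper right and lower left corners, and genes with 0 UMIs on one side are drawn at the floor of 3 UMIs.

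Within the members, the genes that set them apart were unevenly spread. Has1 ran from 0 UMIs through a median of 10.5 to 82 per THC cell and from 0 through 8 to 174 per vehicle cell. Its 5 richest cells held 65.6% of the THC UMIs and 54.3% of the vehicle UMIs, and 5 THC and 12 vehicle members had none. Ccl2 was more uneven: its median was 4.5 UMIs in THC and 2 in vehicle members, its highest 136 and 259, and 9 and 19 cells had none. Ptx3 was seen in 5 of 24 and 15 of 43 members.

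Gene pairs were ranked over the cells of each library, as a description without a test, since cells of 1 library share their preparation and depth. Over 595 genes with at least 30 UMIs in each library, the gene most like Has1 by the lower of the 2 libraries' values was Tnfaip6 (Spearman rho 0.65 over 24 THC cells and 0.77 over 43 vehicle cells), followed by Junb (0.74 and 0.55), Gfpt2 (0.53 and 0.75), Bhlhe40 and Ugdh (0.50 and 0.62). With each cell thinned to 1000 UMIs, Tnfaip6 kept values of 0.66 and 0.67 and Gfpt2 0.47 and 0.67, while Ugdh had 0.09 and 0.33. Cells rich in the synthase were thus mostly rich in its hyaluronan-binding partner and in the amino sugar enzyme. Dcn, a proteoglycan of collagen fibrils, ran against Has1 at -0.48 and -0.59.

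The genes most like Ccl2 were Cxcl1, the neutrophil chemokine (0.53 and 0.59), Zfp36l1, and Nfkbia, the NF-kappaB inhibitor that NF-kappaB itself induces (0.44 and 0.72), which was also among the genes most like Has1 (0.49 and 0.51). Mgp, the matrix Gla protein that holds back calcification, went with Igfbp7 (0.74 and 0.59), Bgn (0.67 and 0.59) and the elastic fibre protein Mfap4 (0.56 and 0.58). Adamts5 (-0.51 and -0.56), Ugdh (-0.50 and -0.51) and Efemp1 were the most opposite to it of the 595 genes. Mgp and Has1 themselves were only weakly opposed, at -0.25 in THC and -0.33 in vehicle members, or -0.03 and -0.26 in thinned cells. None of Has1, Ccl2, Mgp or Fosb followed a cell's UMI total in both libraries, with rho between -0.35 and 0.15 in the 8 values.

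**Figure D3:**
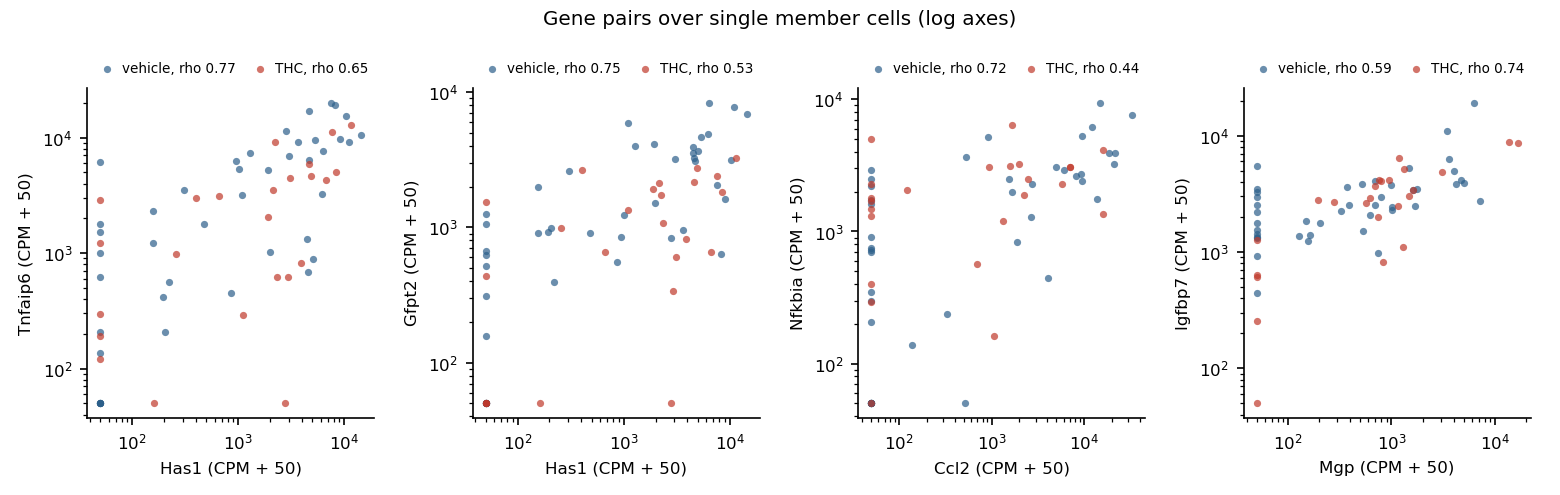
Each point is a member cell of the vehicle (blue) or THC (red) library, with 2 genes' levels in CPM plus 50 on log axes; points on the left edge or the bottom edge have 0 UMIs of a gene, and rho is Spearman's. Cells high in Has1 were mostly high in Tnfaip6 and Gfpt2, Ccl2 went with Nfkbia and Mgp with Igfbp7 in both libraries.

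Between treatments, THC members carried more immediate early gene RNA and less RNA of chemokines, hyaluronan genes and several adventitial genes than vehicle members. Of 2121 genes with at least 30 UMIs over both libraries, 49 (2.31%) were at least 2-fold higher and 117 (5.52%) at least 2-fold lower in the THC library. Over the 3146 genes with at least 20 UMIs, the limit used for gene lists, the median was -0.06. Without the 3 cells the counts were 42 and 117. With 1 library per treatment, the treatment, the mice and the preparation cannot be told apart, and since members were pooled by summing, more RNA per cell and more cells in a state cannot be told apart either.

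The Fos and Jun genes encode the AP-1 transcription factors, which cells switch on within minutes of a stimulus. Of 17 measured AP-1 and immediate early genes, 16 were higher in THC members and 1 lower, with a median of 0.41 (all genes -0.06). Of them 2 passed 2-fold, set against 2.31% of all genes. The same 17 genes had a median of 0.03 in Adamdec1-side fibroblasts of the same libraries, with 10 higher. Without the 3 cells 15 of 17 were higher, with a median of 0.44.

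Fosb had 486 UMIs in THC members, from 0 through a median of 20 to 40 per cell, and 395 in vehicle members, from 0 through 8 to 34. It was found in 23 of 24 THC cells and 31 of 43 vehicle cells, and in 23 and 24 of them when each cell was thinned to 1000 UMIs, so vehicle members lacked it far more often while the ranges overlapped. Its ratio was 1.46 (1.27 to 1.66), against 0.03 in Adamdec1-side cells. The thinned share in epithelial barcodes, at medians of 18062.5 and 13862 UMIs, was 53.4 and 53.1%, so Fosb was common outside fibroblasts too. In barcodes under 100 UMIs, the free RNA of the THC library, Fosb stood at 540 CPM against 3227 CPM in THC members.

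Fos (0.94, 0.82 to 1.05) and Dusp1, the phosphatase that switches off MAP kinases (1.14, 0.88 to 1.41), were higher too, but 297 of 1126 Fos UMIs and 65 of 239 Dusp1 UMIs in THC members lay in the cell with mesothelial markers. Without the 3 cells Fos stood at 0.59 and Dusp1 at 0.80. Junb (0.57), Egr1 (0.56), Jun (0.54), Klf4 (0.56, on the Kruppel-like list) and Nr4a1 (0.41) moved less when those cells were left out, to 0.57, 0.55, 0.46, 0.46 and 0.44. Ier3 alone was lower, at -0.44. Over the cells of each library Fosb went with Jund (0.67 and 0.54), Jun (0.60 and 0.48) and Egr1 (0.43 and 0.55), among others.

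The promoters of Fosb, Dusp1 and Fos, the 3 genes of the list furthest above 0, are shown because they were higher together. They are the 250 bases before the annotated start in RefSeq (GRCm38.p6), written 5′ to 3′: Fos at chr12:85473640-85473889 on the plus strand, Fosb at chr7:19310046-19310295 on the minus strand and Dusp1 at chr17:26508473-26508722 on the minus strand. Capitals mark TGACG, the shared core of the cyclic AMP response element, on either strand, and the full TGACGTCA where it occurs. The short core is in 17.8% of all promoter windows and the full element in 1.55%.
Fos: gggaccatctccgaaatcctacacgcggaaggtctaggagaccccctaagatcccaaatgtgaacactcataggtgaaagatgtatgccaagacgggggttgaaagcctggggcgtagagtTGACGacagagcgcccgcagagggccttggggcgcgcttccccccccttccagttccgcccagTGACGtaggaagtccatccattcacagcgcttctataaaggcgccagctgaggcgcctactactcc
Fosb: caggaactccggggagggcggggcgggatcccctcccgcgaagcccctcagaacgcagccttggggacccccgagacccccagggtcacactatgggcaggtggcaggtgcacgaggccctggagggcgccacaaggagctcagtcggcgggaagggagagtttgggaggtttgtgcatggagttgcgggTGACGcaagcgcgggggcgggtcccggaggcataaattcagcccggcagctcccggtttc
Dusp1: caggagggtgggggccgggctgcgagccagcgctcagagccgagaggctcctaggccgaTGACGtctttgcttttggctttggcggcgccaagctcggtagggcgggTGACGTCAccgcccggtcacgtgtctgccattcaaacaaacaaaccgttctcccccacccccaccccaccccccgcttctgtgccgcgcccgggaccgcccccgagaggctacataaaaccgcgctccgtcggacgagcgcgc
Fos holds 2 matches of the core and none of the full element, Fosb holds 1, and Dusp1 holds 3, of which 2 are the 2 strands of a full element like that of Has1 above. The core is not particular to the higher genes: Has1 and Cxcl1, both lower in THC members, hold 2 matches each.

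Chemokines were lower in THC members: 8 of 9 measured genes lay below 0, with 2 of the 8 genes at 30 UMIs or more past 2-fold (5.52% of all genes) and a median of -0.66, against 0.01 in Adamdec1-side cells. Ccl2 had 352 UMIs in THC members and 1683 in vehicle members, at 2337 and 4997 CPM, a ratio of -1.10 (-1.27 to -0.93), and Ccl7 147 and 830 UMIs, a ratio of -1.34 (-1.60 to -1.08). Both were also lower in Adamdec1-side cells, at -0.63 and -1.88. For Ccl2 the difference lay among the cells with higher levels and not in the median cell. Over 13 alternatives, which include leaving out the richest cell, the Ccl2 ratio stayed between -1.53 and -0.76. A Ccl2 UMI was found in 62.5% of THC and 55.8% of vehicle members (0% of thinned epithelial barcodes in both libraries), and the median cell had 947 against 465 CPM, the opposite order to the summed levels. The upper quartile was 2231 and 7030 CPM and the highest cell 16072 and 32924 CPM.

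Cxcl1, with 630 and 2221 UMIs, stood at -0.66 (-0.79 to -0.53) in members and at 1.09 in Adamdec1-side cells. The eotaxin Ccl11 stood at -0.48 (-0.72 to -0.25). Cxcl10, an interferon-induced chemokine, was the gene above 0, at 1.22 (0.81 to 1.62), with 73 of its 106 THC UMIs in 1 cell and a ratio of 0.33 without the richest cells. Of the 9 chemokines 7 were lower without the 3 cells, with a median of -0.59. As the mean of per-cell CPM 6 of 9 were lower, with a median of -0.35, and with each cell thinned to 1000 UMIs 5 of 7, with a median of -0.29. Of 11 NF-kappaB genes 8 were lower, with a median of -0.23, and 9 without the 3 cells, with a median of -0.37. That direction did not hold throughout: thinned to 1000 UMIs 3 were higher and 2 lower, with a median of 0.21, and as the mean of per-cell CPM 5 were higher and 6 lower. Past 2-fold were 2 of the 11, beside 5.52% of all genes: Tnfaip2 (34 and 225 UMIs, -1.57, -2.13 to -1.04) and the subunit Rela (18 and 87 UMIs, -1.11). Nfkbia (-0.02) and Tnfaip3 (-0.07) were level.

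The Cxcl1 promoter is shown as the chemokine gene whose direction differed between the fibroblast kinds, from RefSeq (GRCm38.p6) at chr5:90890995-90891244 on the plus strand. Capitals mark the NF-kappaB motif GGAATTTCC, searched on both strands and found in 0.286% of promoter windows.
Cxcl1: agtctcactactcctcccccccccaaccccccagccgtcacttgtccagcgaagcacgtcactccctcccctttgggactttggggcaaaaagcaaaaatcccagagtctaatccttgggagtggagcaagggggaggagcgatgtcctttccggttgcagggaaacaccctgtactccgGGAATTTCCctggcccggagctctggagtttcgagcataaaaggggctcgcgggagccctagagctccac
It holds 1 match of this motif, and no factor's binding was measured in these cells. The 2 matches of the TGACG core that it also holds are left in small letters.

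Hyaluronan genes were lower in THC members as a group, on the list written after the values had been seen. Of 11 measured genes, 10 were lower and 1 higher, with a median of -0.75, and 3 were at least 2-fold lower (5.52% of all genes), all of them enzymes on the way to the precursor sugars: Gnpnat1 (8 and 56 UMIs, -1.65), Uap1 (35 and 192 UMIs, -1.29) and Ugp2 (24 and 118 UMIs, -1.14). Gfpt2 stood at -0.85 (-1.09 to -0.62), Tnfaip6 at -0.75 (-0.91 to -0.59) and Ugdh at -0.70 (-0.99 to -0.42). Has1 was closer to level, at -0.38 (-0.57 to -0.20), and its median cell was higher in the THC library, at 2139 against 966 CPM. The median cell of Tnfaip6 was also higher there, at 2427 against 2246 CPM, while those of Gfpt2, Ugdh and Uap1 were lower. Uap1 was level, at 0.018, once cells were thinned to 1000 UMIs.

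**Figure D4:**
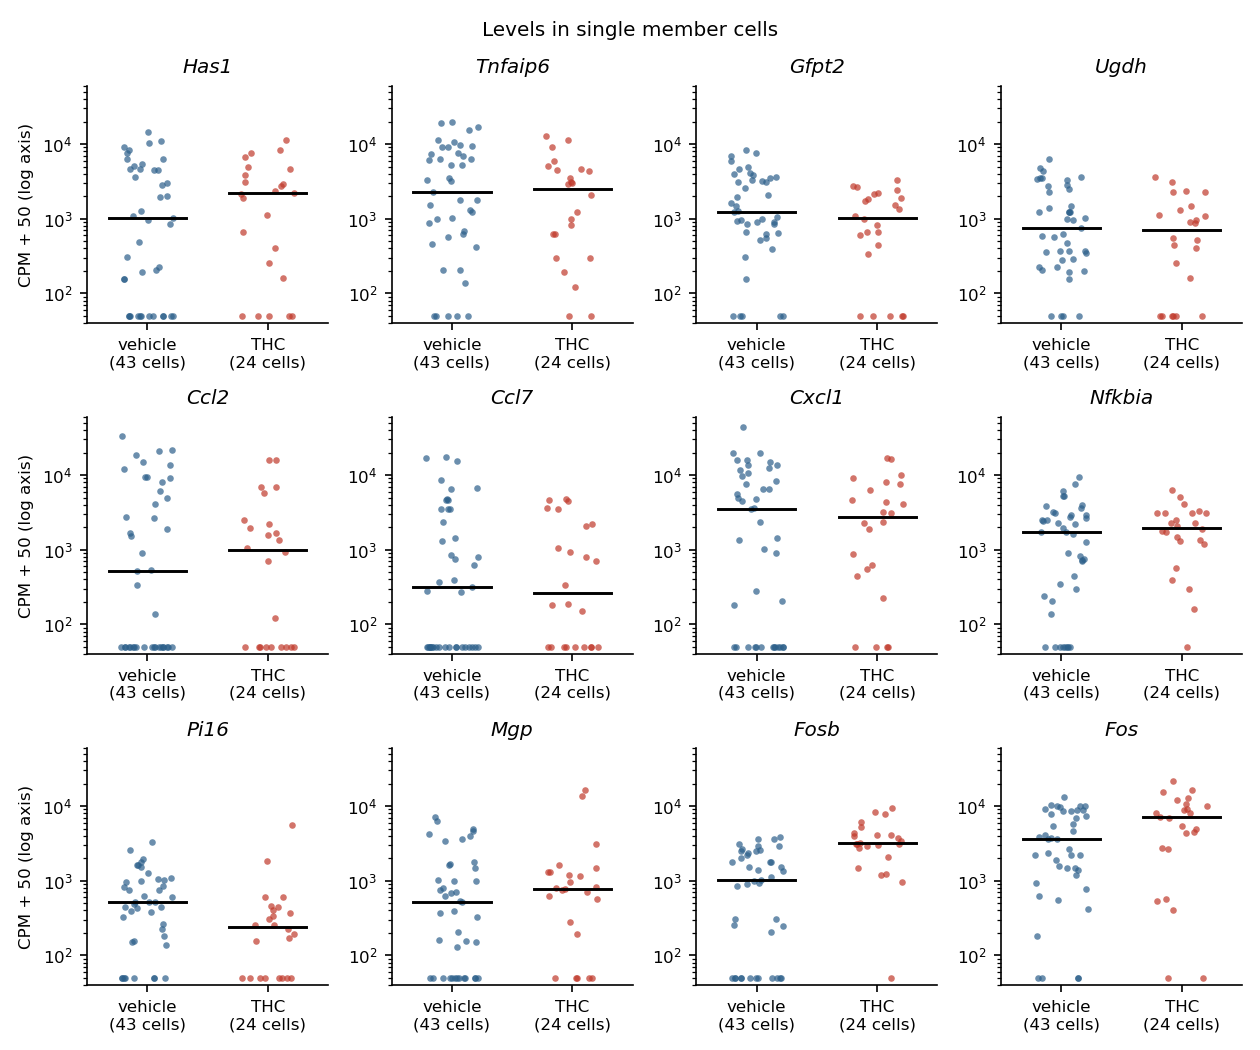
Each point is a member cell, with its level in CPM plus 50 on a log axis, for the vehicle (blue, 43 cells) and THC (red, 24 cells) libraries; black bars are medians and points on the bottom line have 0 UMIs. The libraries overlap for every gene drawn, the richest Ccl2, Ccl7 and Tnfaip6 cells are vehicle cells, and few THC cells lack Fosb.

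Adventitial genes leaned the same way. Of 19 measured universal fibroblast genes, which include Has1 and Gfpt2, 15 were lower in THC members, with a median of -0.38, against -0.06 in Adamdec1-side cells. Pi16 had 44 UMIs in THC members, from 0 through a median of 1 to 10 per cell, and 228 in vehicle members, from 0 through 3 to 45, and its ratio was -1.21 (-1.71 to -0.74). With cells thinned to 1000 UMIs it was -0.30. Col14a1 stood at -0.45 (-0.71 to -0.19), Pcolce2 at 0.25 (-0.11 to 0.59) and Scara5 at -0.03 (-0.52 to 0.43). These 4 genes chose the members, so their ratios are a description only. Sfrp4 had 34 and 210 UMIs (-1.47, -2.03 to -0.94), the microfibril proteins Mfap5 (-1.09) and Fbn1 (-1.08) both passed 2-fold, and the semaphorin Sema3c stood at -1.13, or at -0.052 with cells thinned to 1000 UMIs. Gsn (0.02) and Cd34 (0.06) were level, and Igfbp6 (0.40) and Dpt (0.31) were higher, Igfbp6 at -0.15 without the 3 cells.

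Matrix gene lists differed among themselves. Of 14 proteoglycan and matricellular genes 11 were lower, with a median of -0.37, including Sparc (-0.36), Fn1 (-0.50) and Lum (-0.59), while the medians of fibrillar collagens (8 genes, -0.06), collagen processing (12 genes, -0.07), elastic fibre (13 genes, 0.05) and proteases (12 genes, -0.03) were near that of all genes. Of the 12 elastic fibre genes at 30 UMIs or more, 3 (Fbn1, Mfap5 and Ltbp1) were at least 2-fold lower, beside 5.52% of all genes, and as the mean of per-cell CPM 10 of 13 were lower, with a median of -0.40. Of the 12 protease genes 5 were higher, and 7 without the 3 cells. Mgp was higher, with 336 UMIs in 19 THC members and 387 in 30 vehicle members, a ratio of 0.96 (0.74 to 1.17). A single THC cell held 121 of its UMIs. Leaving out each library's richest Mgp cell gave 0.56, and leaving out the 3 cells gave 1.34, since the smooth muscle and immune marker cells held 41 and 38 vehicle UMIs. The basement membrane gene Nid1 stood at -0.97 (-1.35 to -0.60), and at -0.28 thinned.

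Of the 10 genes named as lower in THC members, Ctgf, a target of TGF-beta and of YAP, stood furthest below 0. It had 2 UMIs in 2 THC members and 59 in 18 vehicle members, a ratio of -3.72 (-6.80 to -1.80). Its relative Cyr61 was level, at -0.11, and the median of 10 TGF-beta genes was -0.14. Adora2b, an adenosine receptor, had 2 and 38 UMIs (-3.09), Pcsk6, a proprotein convertase, 7 and 62 (-1.99), Gadd45a, a DNA damage gene, 7 and 60 (-1.94), Ccdc186 2 and 32 (-2.84) and Errfi1, which restrains the EGF receptor, 95 and 515 (-1.28, -1.61 to -0.96). These genes rest on few THC UMIs. Thinned to 1000 UMIs per cell, Ctgf and Gadd45a both stood at -0.74 and Adora2b at -1.48.

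Several genes named as higher in THC members came in part from the cell with mesothelial markers, which held 72 of 134 Rarres2 UMIs, 58 of 91 Hspa1a UMIs, 27 of 96 Cryab UMIs, 13 of 28 Ephx1 UMIs and 23 of 30 UMIs of the R-spondin gene Rspo1. Rarres2, the chemerin gene, stood at 1.15 with it and at 0.17 without the 3 cells. Cryab, a small heat shock protein with 50 more of its THC UMIs in 1 other cell, stood at 1.58 and 1.22, Ephx1, an epoxide hydrolase, at 1.97 and 1.32, and Rspo1 at 3.07 and 1.03. Pnp, a purine enzyme (1.31 and 1.43, or 2.30 thinned), Amotl2 (2.10 and 2.05, from 25 and 13 UMIs) and the interferon-induced Ifi27l2a (0.98 and 1.03) barely moved. Thinned to 1000 UMIs, Cryab stood at 0.55 and Ifi27l2a at 0.38.

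Cytosolic heat shock chaperones had a median of 0.08 in THC members, with 8 of 14 higher, while the same 14 genes had a median of -0.64 in Adamdec1-side cells, with 0 higher. That contrast rested in part on the same cell: without the 3 cells 5 of 14 were higher and the median was -0.17. Hspa1a, an inducible Hsp70, stood at 0.49 with them and at -0.89 without, and its partner Dnajb1 at 0.88 and 0.63. Endoplasmic reticulum chaperones and other unfolded protein response genes leaned lower, 10 of 13 with a median of -0.24, but with cells thinned to 1000 UMIs 5 were higher and 4 lower, with a median of 0.0048. In the summed counts Dnajb9 (0.89, 0.39 to 1.39) was the exception furthest above 0.

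No member of either library held a UMI of the cannabinoid receptor genes Cnr1 and Cnr2, of the THC-responsive receptor gene Gpr55, or of Faah and Napepld, which break down and make anandamide. For each gene this was 0 of 24 THC and 0 of 43 vehicle cells. Such a result allows a share of cells with a UMI of up to about 12.5% and 6.98%. Over all cells of the THC and vehicle libraries Cnr1 had only 1 and 0 UMIs and Cnr2 4 and 8, so their absence is not particular to members. Gpr55 had 23 and 42, Faah 70 and 69 and Napepld 22 and 34. Mgll, the lipase of 2-arachidonoylglycerol, was found in 13 THC members (25 UMIs) and 22 vehicle members (35 UMIs), a ratio of 0.68 (-0.13 to 1.46).

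**Figure D5:**
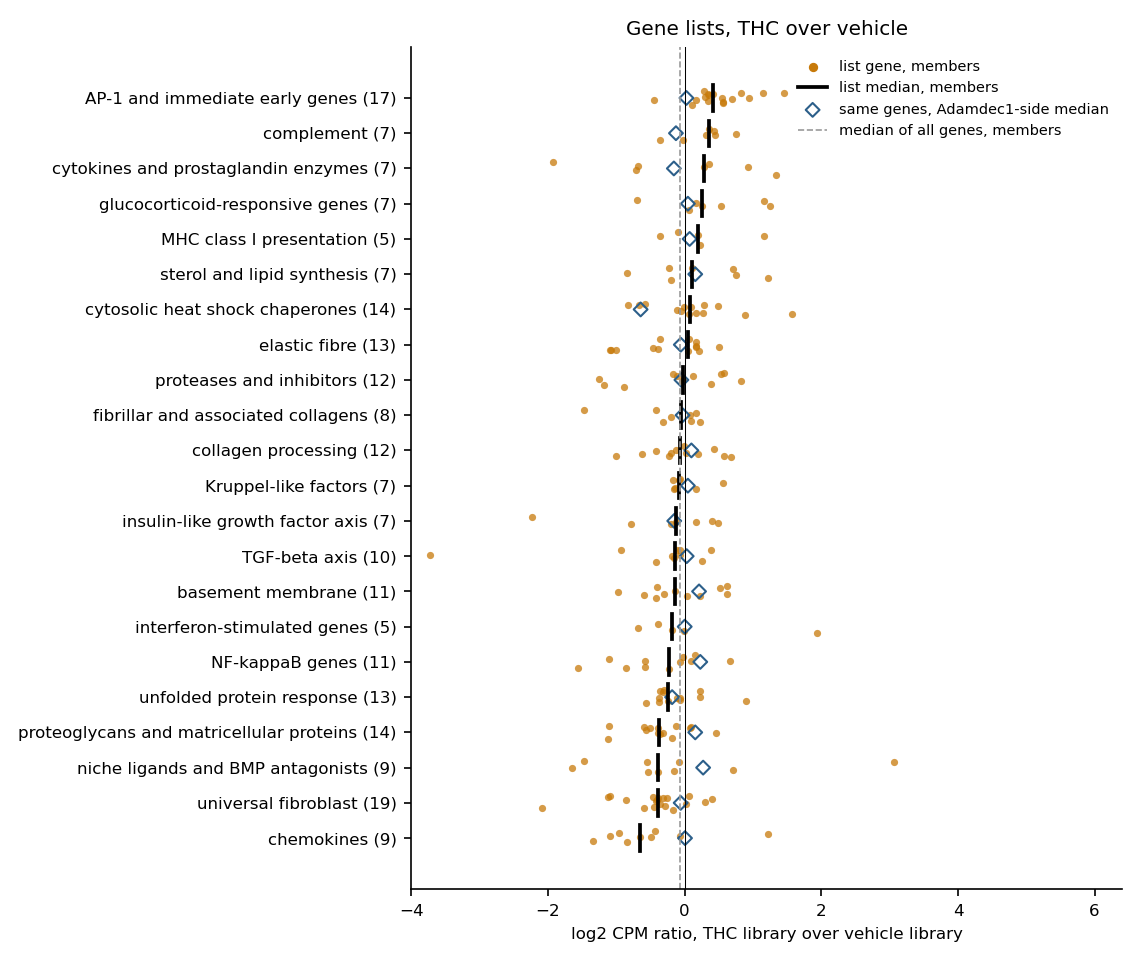
Each orange point is a gene of a list, placed by its log2 CPM ratio of the THC over the vehicle library in members, for the 22 of 24 lists with at least 5 measured genes (numbers in brackets); black bars are list medians, open diamonds the median of the same genes in Adamdec1-side fibroblasts, and the dashed line the median of all genes. AP-1 genes lie furthest right at 0.41 and chemokines furthest left at -0.66, and single genes scatter widely around most medians.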

How the data were processed

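UMI counts per gene and barcode were deposited by the authors, made with Cell Ranger 3.0.2 per the file headers. Besides it, bcl2fastq and Seurat stand in the submitters' processing notes. For the build and annotation nothing is stated in the sources used here. The THC matrix listed 737280 barcodes (106628 with a UMI) and the vehicle matrix 973 called cells.

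Raw counts were summed over members per library with Python 3.11.15, numpy 2.4.6, scipy 1.17.1 and pandas 2.3.3, and the code was tested on simulated data. Ratios of CPM carry exact conditional Poisson intervals at 95%, and shares exact binomial (Clopper-Pearson) intervals. Both cover counting error only, not variation between cells or mice, and are too narrow where 1 cell holds many UMIs. For a gene found in 0 cells, the largest share allowed was instead taken as 3 divided by the number of cells, an approximation. Thinning drew 1000 UMIs per cell. Comparisons left out sex-linked genes, antigen receptor genes, and those of haemoglobin, ribosomal proteins, rRNA and mitochondria.

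Named genes between treatments were the 10 highest and 10 lowest by the interval bound nearest 0, found in at least 10% of a library's members, with no cell over 33.3% of the UMIs of both libraries together (in 1 library a cell could hold more) and at least 20% of the highest level among other cell types. Against Adamdec1-side cells they were the 15 highest and 10 lowest without the 12 genes of the rule. Genes of the lists and the markers were named besides. Other genes, Dcn among them, were chosen after their values were seen. Members and lists were chosen with earlier results of these data known, the hyaluronan list and the exclusion of 3 cells after values were seen. The limits on epithelial, immune, endothelial and muscle genes were the only removal of mixed barcodes, and 3 members with other types' markers passed them. Scrublet (scanpy 1.11.5), used only as an alternative, marked 0.505% of THC and 0.317% of vehicle cells and 0 fibroblasts. Promoters of 5 of 5 genes were matched by symbol in RefSeq. Other alternatives changed barcode limits, the marker margin, scaling, count limits, depth and the richest cell.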

Additional observations from a re-analysis of the deposited data

Results flagged for a closer look

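For 9 genes the ratio of the THC over the vehicle library had opposite signs in members and in Adamdec1-side fibroblasts, with both counting intervals clear of 0. The difference between the kinds of fibroblast was not tested, since each treatment had 1 library.

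Of them 4 were higher in THC members. Ptgs2, the inducible prostaglandin synthase, stood at 1.34 on the log2 scale in members and -0.54 in Adamdec1-side cells, and Atf3, a stress-induced transcription factor, at 0.69 and -0.50. Dnajb1 stood at 0.88 and -0.49 and Hspa1a at 0.49 and -1.21. Without the 3 cells that carry another cell type's markers, Hspa1a in members stood at -0.89, on the same side as in Adamdec1-side cells, and Dnajb1 at 0.63.

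The other genes were lower in THC members. Cxcl1 stood at -0.66 in members and 1.09 in Adamdec1-side cells, and Has1 at -0.38 and 1.18, the latter from only 55 and 39 UMIs in 6 and 5 Adamdec1-side cells. The surface protein Ly6c1 stood at -0.59 and 0.57 and the matrix protein Thbs1, thrombospondin, at -0.56 and 0.51, with -1.46 in members once thinned to 1000 UMIs per cell. Aspn, the proteoglycan asporin, stood at -1.12 and 0.39, and at 0.034 in members thinned to 1000 UMIs per cell.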

How the results depend on the processing

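No paired analysis was possible because each treatment had 1 library, and no replicate could be left out. The shares of members kept within their counting intervals under all 8 alternatives run (24.4 to 28.9% THC, 25.8 to 29.1% vehicle). The counts past 2-fold depended on the count limit and depth. From 49 higher and 117 lower in the THC library they went to 384 and 703 at a limit of 10 UMIs, to 8 and 17 at 100 UMIs and to 7 and 18 with cells thinned to 1000 UMIs. Without the richest cell of each gene they were 29 and 188, and as the mean of per-cell CPM 77 were higher. Against Adamdec1-side cells, a limit of 100 UMIs gave 51 higher and 105 lower. The limit and thinning alter how many genes are measured, and for the other settings the cause was not tested. The chemokine median of -0.66 was -0.29 thinned, -0.35 as mean per-cell CPM and -0.79 without the richest cells, and the AP-1 median ran from 0.38 to 0.53 over 15 alternatives. Thinned, Uap1 (0.018) and Aspn (0.034) changed sign, and the cause was not tested. Of 739 values of named genes under alternatives 724 kept their sign, as did 343 of 370 list medians. With 24 and 43 cells, genes with few UMIs, such as Ctgf (-4.61 to -0.74) and Cxcl2 (-3.92 to 0.82), had no settled size.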

Other observations

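Smaller gene groups were measured in members without a place in the comparisons above, and none was tested. Of 7 complement genes 5 were higher in THC members, with a median of 0.36 (0.16 without the 3 cells that carry other types' markers), and of 7 glucocorticoid-responsive genes 6, with a median of 0.25 (4 of 7 as the mean of per-cell CPM). Among 7 cytokine and prostaglandin genes, Ptgs2 stood at 1.34 (44 THC and 39 vehicle UMIs), Ptges, which completes prostaglandin E synthesis, at 0.92, and Ptgs1, the constitutive synthase, at -1.93. Of 9 niche ligand and BMP antagonist genes 7 were lower, with a median of -0.38, against 0.27 in Adamdec1-side cells. The basement membrane list (11 genes, median -0.14) and the insulin-like growth factor list (7 genes, -0.13) lay near the median of all genes, -0.06.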
